A study of Mus musculus with 8 samples.

Results

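The 10 genes described here encode members of the BCL-2 family, the proteins that decide whether a cell's mitochondrial outer membrane stays intact or is opened during apoptosis. They were taken by name from the table of expected counts per gene, with earlier results of these data known. The survival genes among them were *Bcl2*, *Bcl2l1*, *Mcl1*, *Bcl2a1a*, *Bcl2a1b* and *Bcl2a1d*. The effectors were *Bax* and *Bak1*, and *Bcl2l11* and *Pmaip1* were BH3-only genes. All 10 of them were among the 17625 genes, of 50615 in the table, that passed the filter on low counts. The libraries came from bone marrow-derived macrophages (BMDMs) of male C57BL/6 mice, grown from marrow over 6 days in 20 ng/ml M-CSF. The control mice carried floxed *Ncoa6* alleles without Cre (Ncoa6 fl/fl, *Ncoa6*-sufficient), and the knockout mice carried the same alleles with Cre from the myeloid *Lyz2* (LysM) locus (Ncoa6 fl/fl LysM-CRE, *Ncoa6*-KO). NCOA6 is a nuclear receptor coactivator. Both genotypes were studied in medium alone, here called rest, and after 4 h of LPS at 100 ng/ml and 2 h of monosodium urate (MSU) crystals at 200 µg/ml (LPS + MSU), the priming and triggering steps used to activate the NLRP3 inflammasome. The 4 groups comprised 2 libraries each, made from different mice within a group. The p-values therefore rest on the spread between 2 libraries within a group. That spread was estimated in one fit over all 4 groups, with information drawn from all tested genes. Whether the cultures at rest and with LPS + MSU came from the same mice is not stated. The age of the mice is not given in the sources used here.

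BCL-2 family proteins fall into 3 roles. The survival proteins BCL-2, BCL-XL (from *Bcl2l1*), MCL-1 and A1 (from the *Bcl2a1* genes) hold the effectors BAX and BAK in check. When BH3-only proteins such as BIM (from *Bcl2l11*) or NOXA (from *Pmaip1*) occupy the survival proteins, BAX and BAK form pores in the outer membrane, cytochrome c is released and caspases are switched on. In macrophages A1 is known as a target of NF-κB that is made after contact with microbial products. MCL-1 is a protein with a short life. Every measurement below is of mRNA, and the levels of the proteins were not analysed here.

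The mouse genome holds several near-identical copies of the gene for A1, and their sequences are shown first because they set how far the copies can be told apart. In the GENCODE annotation of GRCm38 *Bcl2a1a* lies on chr9:88956900-88962419 (plus strand), *Bcl2a1b* on chr9:89199209-89207827 (plus strand) and *Bcl2a1d* on chr9:88723285-88731914 (minus strand). Each has 1 annotated transcript with a coding sequence of 519 bases. Over those 519 bases *Bcl2a1a* and *Bcl2a1d* differed at 7 positions (98.7% identical), *Bcl2a1b* and *Bcl2a1d* at 6 (98.8%) and *Bcl2a1a* and *Bcl2a1b* at 11 (97.9%). The stretch of 120 bases with the most differences was the start of the coding sequence, which held 7 of the 12 positions at which the copies were not all alike. In the lines below it runs from coding position 1 to 120, and capitals mark the positions that differ.
Bcl2a1a: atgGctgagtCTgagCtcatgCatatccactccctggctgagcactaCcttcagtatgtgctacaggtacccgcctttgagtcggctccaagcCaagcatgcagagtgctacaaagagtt
Bcl2a1b: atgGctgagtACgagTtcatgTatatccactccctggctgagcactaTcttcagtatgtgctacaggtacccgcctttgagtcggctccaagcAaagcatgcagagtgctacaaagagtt
Bcl2a1d: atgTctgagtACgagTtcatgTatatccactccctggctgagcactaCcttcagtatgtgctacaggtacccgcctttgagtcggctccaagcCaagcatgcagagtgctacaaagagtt

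A read was 100 bases long, so the transcripts were searched for windows of 100 bases that occur unchanged in another copy. Of the windows in *Bcl2a1a*, 43.5% also occurred in another copy, against 31.1% in *Bcl2a1b* and 54.7% in *Bcl2a1d*. No such window of the fourth copy, *Bcl2a1c* (chr9:114330135-114330578), occurred in the other copies. These shares are of single windows. Reads were sequenced in pairs, and the share of pairs that match several copies was not computed. RSEM divides reads that match several genes by estimation, so the split between *Bcl2a1a*, *Bcl2a1b* and *Bcl2a1d* is uncertain, and the sum over the 4 copies was analyzed beside them. The RefSeq promoter windows of the 3 near-identical copies (250 bases before to 50 after the annotated start) shared a stretch with an AP-1 match (TGANTCA) and a PU.1 core match (GAGGAAGT), shown here because these genes moved together. Capitals mark both matches, and the windows are read 5′ to 3′ on the strand of the gene in GRCm38.p6: chr9:88956786-88956853 (plus), chr9:89199095-89199162 (plus) and chr9:88731917-88731984 (minus).
Bcl2a1a: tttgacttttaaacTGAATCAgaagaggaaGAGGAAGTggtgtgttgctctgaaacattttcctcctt
Bcl2a1b: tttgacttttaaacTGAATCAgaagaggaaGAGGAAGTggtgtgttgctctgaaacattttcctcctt
Bcl2a1d: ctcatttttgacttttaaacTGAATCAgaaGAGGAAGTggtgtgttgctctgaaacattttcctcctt

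The matches lay 9 bases apart in *Bcl2a1a* and *Bcl2a1b* and 3 bases apart in *Bcl2a1d*. Searched on both strands, the AP-1 letters occurred in 7.81% and the PU.1 letters in 3.20% of all 32851 promoter windows of this length. Neither motif overlapped the other in these copies. The κB consensus, the CRE (TGACGTCA) and the FOXO core (GTAAACA) were searched too and had no match in these windows. A κB match occurred in 11.2% of all windows. The window of *Bcl2a1c* had a PU.1 match and no match of the other motifs. A match of letters does not show that a factor was bound.

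The 8 libraries held between 25281955 and 33673552 counts. The share of mitochondrial transcripts ranged from 3.89% to 6.28%. *Ncoa6*, whose exon 7 is floxed, was at 1515 and 1405 normalized counts in *Ncoa6*-sufficient BMDMs at rest and at 784 and 622 in *Ncoa6*-KO cells, and at 1297 and 1173 against 563 and 526 with LPS + MSU. Counts of the whole gene include exons outside the floxed part, and all 4 knockout libraries lay below all 4 control libraries. All 8 macrophage markers on the list were detected. Their summed level was 388720 to 456129 normalized counts in *Ncoa6*-sufficient and 248932 to 288002 in *Ncoa6*-KO cells at rest, and 507971 to 577703 against 366954 to 393408 with LPS + MSU. *Lyz2*, which carries the Cre insertion, made up much of that sum and was at 272098 and 209893 against 127555 and 111994 at rest. Markers of other cells were low in comparison. The 9 neutrophil markers summed to 326 to 697 normalized counts over the groups, the 5 stromal markers to 131 to 833 and the 5 B cell markers to at most 50.3. Of the 7 mast cell markers only *Kit* was above 3 counts, and the list summed to 280 to 592 at rest and to 22.2 to 71.4 with LPS + MSU. The 6 T and NK cell markers summed to 26.6 to 111, and the 6 dendritic cell markers to 18.1 to 24.8 at rest and to 167 to 277 with LPS + MSU. The part of these cells in the results below was not tested. In bulk RNA a change in the number of cells of a type and a change in RNA per cell cannot be told apart.

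To compare genes with one another, normalized counts were divided by the length of each gene's exons, and these levels are given as counts per kb. In *Ncoa6*-sufficient BMDMs at rest the order was led by *Mcl1* at 4126 to 4193 counts per kb, followed by *Bax* (1837 to 1950), *Bcl2a1b* (1651 to 1761) and *Bak1* (1251 to 1301). *Bcl2l1*, *Bcl2l11* and *Pmaip1* came next, and *Bcl2a1d* (61.8 to 94.8), *Bcl2* (28.9 to 33.0) and *Bcl2a1a* (2.10 to 9.16) were the lowest. No neighbours in this order overlapped between libraries. With LPS + MSU the order was led by *Bcl2a1b* at 14478 to 17168 counts per kb. *Mcl1* (7453 to 7730) and *Bcl2a1d* (6281 to 7752) followed with overlapping libraries, and *Bcl2* came last at 6.77 to 6.96. The *Ncoa6*-KO BMDMs had *Mcl1*, *Bax*, *Bcl2a1b* and *Bak1* in the first 4 places at rest, with *Bcl2a1d* and *Bcl2* overlapping in their libraries, and *Bcl2a1b*, *Mcl1* and *Bcl2a1d* in the first 3 places with LPS + MSU.

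The make-up of the 10 genes on this length-scaled measure shifted toward the *Bcl2a1* copies with LPS + MSU. The 3 *Bcl2a1* copies made up 17.2% to 18.5% of the total in *Ncoa6*-sufficient libraries at rest and 62.3% to 65.4% with LPS + MSU. In the *Ncoa6*-KO libraries they made up 18.0% and 61.3% to 62.1%. The other survival genes lost share. In *Ncoa6*-sufficient cells the mean went from 41.5% to 20.5% for *Mcl1*, from 4.23% to 2.99% for *Bcl2l1* and from 0.308% to 0.0185% for *Bcl2*. The 6 survival genes together held 63.4% to 64.3% at rest and 86.6% to 88.0% with LPS + MSU in *Ncoa6*-sufficient BMDMs, and 62.5% to 64.6% and 85.7% to 85.9% in *Ncoa6*-KO cells. The effectors *Bax* and *Bak1* held 31.1% to 32.1% and then 11.2% to 12.5% in *Ncoa6*-sufficient cells. The BH3-only genes *Bcl2l11* and *Pmaip1* held 4.44% to 4.62% and then 0.817% to 0.928%. These shares compare genes within a library and do not move with the scaling between libraries. They do depend on the length used: with the longest transcript of each gene the survival genes held a mean of 59.3% and 85.2% in *Ncoa6*-sufficient cells.

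**Figure D1:**
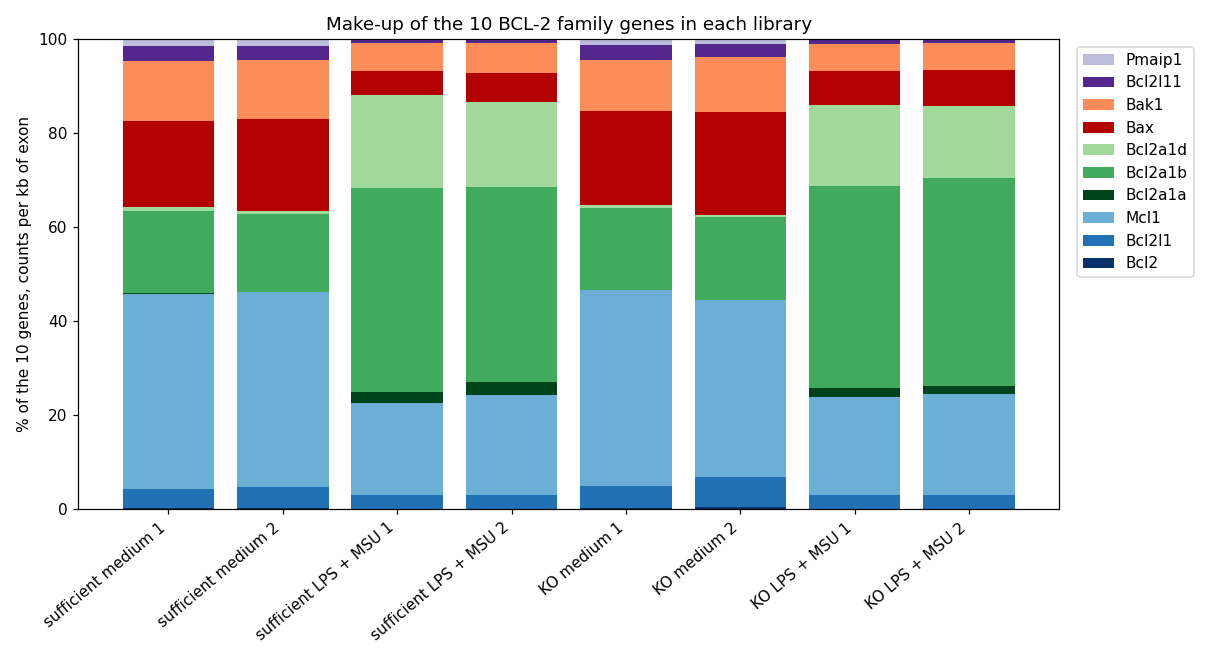
Share of each of the 10 genes, in percent of their summed counts per kb of exon, in each of the 8 libraries, drawn as stacked bars. The green bars of the 3 Bcl2a1 copies took 17.2% to 18.5% in the Ncoa6-sufficient libraries at rest and 62.3% to 65.4% in those with LPS + MSU.

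What stimulation did to the members was tested first within *Ncoa6*-sufficient BMDMs. With LPS + MSU 6 of the 10 genes rose and 3 fell (edgeR's quasi-likelihood test, Benjamini-Hochberg adjusted p under 0.05 over all 17625 genes). Among all tested genes 24.7% rose and 30.5% fell. In *Ncoa6*-KO BMDMs 7 of the 10 rose and 1 fell, against 25.2% and 27.9% of all tested genes. With an absolute log2 difference over 1 required as well, 5 of the 10 were called in *Ncoa6*-sufficient and 4 of the 10 in *Ncoa6*-KO cells, against 32.5% and 30.3% of all tested genes. The median log2 difference of the 10 genes was 0.86 in *Ncoa6*-sufficient and 0.84 in *Ncoa6*-KO cells, while the median over all tested genes was -0.12 and -0.07. These counts and medians take the 3 near-identical *Bcl2a1* copies, which all rose in both genotypes, as 3 separate genes. Taken as 1 gene, the sum of the *Bcl2a1* copies rose by 3.75 and 3.59 on the log2 scale.

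**Figure D2:**
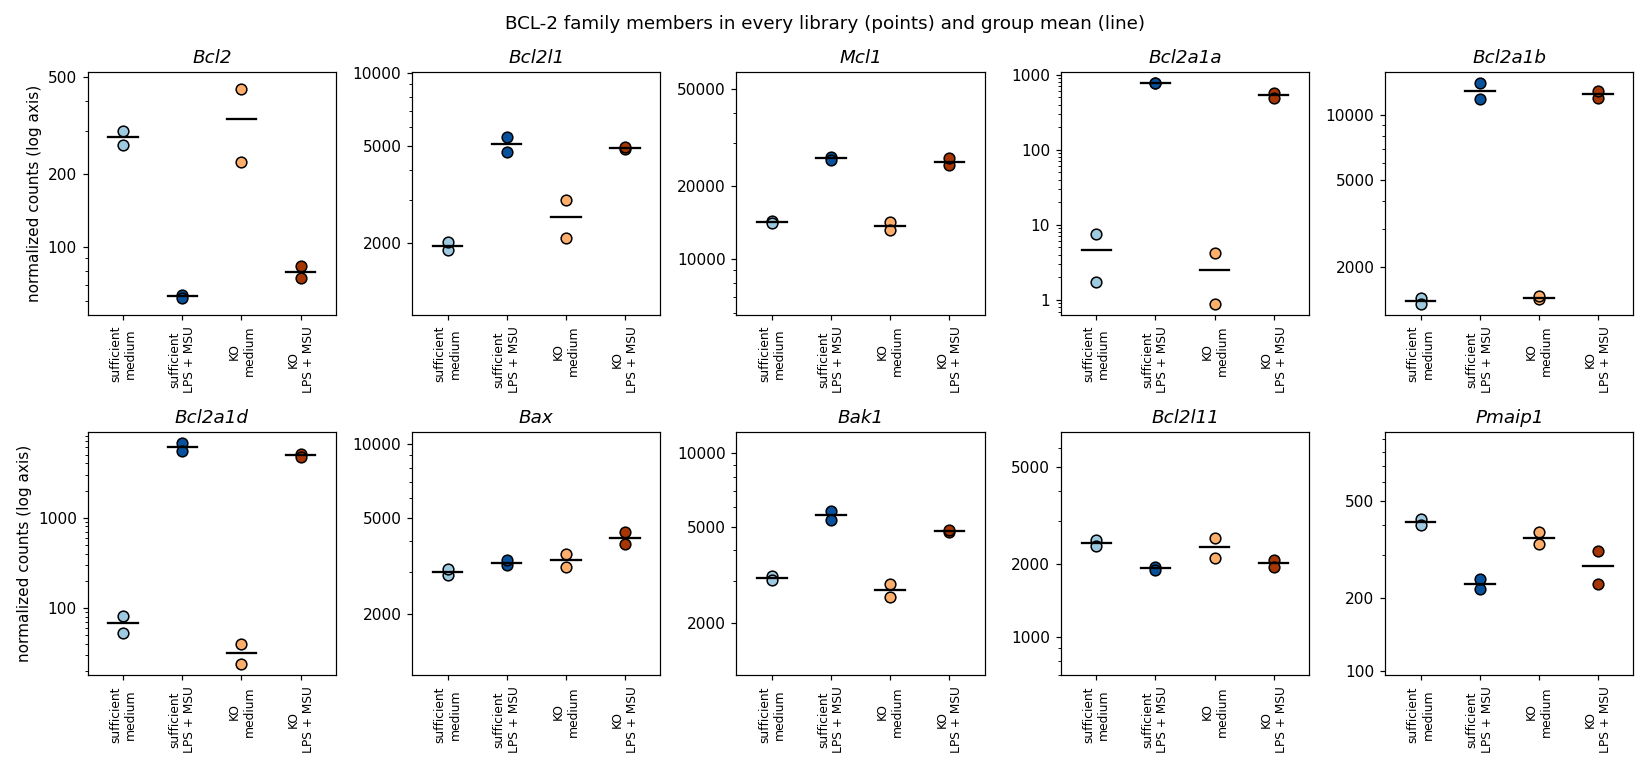
Normalized counts (log axis) of the 10 genes, with 1 point per library and a line at the mean of the 2 libraries in each of the 4 groups. The 3 Bcl2a1 copies, Bcl2l1, Mcl1 and Bak1 lay higher in all libraries with LPS + MSU than in all libraries at rest. Bcl2, Bcl2l11 and Pmaip1 lay lower in all of them, and Bax overlapped.

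*Bcl2* (chr1:106538178-106714274, minus strand), the founding survival gene, had 264 and 302 normalized counts in *Ncoa6*-sufficient BMDMs at rest and 63.7 and 62.0 with LPS + MSU. *Ncoa6*-KO BMDMs had 224 and 447 at rest and 74.5 and 83.9 with LPS + MSU. The libraries with LPS + MSU lay below all libraries at rest, and the pair of *Ncoa6*-KO libraries at rest was the farthest apart. *Bcl2* fell to 22.3% in *Ncoa6*-sufficient cells (log2 difference -2.17, SE 0.31, edgeR adjusted p = 0.000102) and to 23.8% in *Ncoa6*-KO cells (-2.07, SE 0.29, adjusted p = 0.000112).

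*Bcl2l1* (chr2:152780668-152831728, minus strand), which encodes BCL-XL, had 1868 and 2021 normalized counts in *Ncoa6*-sufficient cells at rest and 5472 and 4750 with LPS + MSU. The *Ncoa6*-KO libraries had 2090 and 3020 and then 4866 and 4949. All stimulated libraries lay above all unstimulated ones. The rise was 2.63-fold in *Ncoa6*-sufficient cells (log2 difference 1.39, SE 0.15, edgeR adjusted p = 1.27e-05) and 1.92-fold in *Ncoa6*-KO cells (0.94, SE 0.15, adjusted p = 0.000275).

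*Mcl1* (chr3:95658788-95663176, plus strand) had the highest normalized counts of the 10 genes in every library, with 14332 and 14103 in *Ncoa6*-sufficient cells at rest and 26420 and 25473 with LPS + MSU. In *Ncoa6*-KO cells it had 14188 and 13123 and then 24295 and 26086. The rise was 1.82-fold in *Ncoa6*-sufficient (log2 difference 0.87, SE 0.10, edgeR adjusted p = 2.66e-05) and 1.84-fold in *Ncoa6*-KO cells (0.88, SE 0.10, adjusted p = 2.53e-05). Genotypes overlapped under both culture conditions.

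The *Bcl2a1* copies had the largest rises of the 10 genes. *Bcl2a1b* was the copy with the most counts at rest, with 1439 and 1349 normalized counts in *Ncoa6*-sufficient and 1418 and 1475 in *Ncoa6*-KO cells. With LPS + MSU it reached 14026 and 11828, and 11983 and 12918. Its rise was 9.27-fold in *Ncoa6*-sufficient (log2 difference 3.21, SE 0.12, edgeR adjusted p = 2.68e-09) and 8.61-fold in *Ncoa6*-KO cells (3.11, SE 0.12, adjusted p = 3.27e-09).

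*Bcl2a1d* started from a lower level, with 81.8 and 53.3 normalized counts in *Ncoa6*-sufficient and 39.6 and 23.7 in *Ncoa6*-KO cells at rest. With LPS + MSU it had 6690 and 5421, and 5120 and 4709. These values correspond to an 88.7-fold rise in *Ncoa6*-sufficient cells (log2 difference 6.47, SE 0.21, edgeR adjusted p = 1.33e-09) and a 151-fold rise in *Ncoa6*-KO cells (7.24, SE 0.23, adjusted p = 1.11e-09). *Bcl2a1a* was at the edge of detection at rest, with 7.51 and 1.72 normalized counts in *Ncoa6*-sufficient and 4.17 and 0.878 in *Ncoa6*-KO cells, and reached 768 and 775, and 561 and 495, with LPS + MSU. Its fitted log2 differences were 7.29 (SE 0.30) and 7.54 (SE 0.33, edgeR adjusted p = 5.88e-09 and 9.88e-09), and their size rests on a few reads in the unstimulated libraries.

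The copies thus did not rise by the same factor in the estimated counts, and whether this reflects the genes or the division of shared reads was not tested. The sum of the 4 copies is free of that division. It was 1528 and 1404 normalized counts in *Ncoa6*-sufficient cells at rest, 21502 and 18038 with LPS + MSU, 1462 and 1502 in *Ncoa6*-KO cells at rest and 17677 and 18130 with LPS + MSU. The sum rose 13.5-fold in *Ncoa6*-sufficient (log2 difference 3.75, SE 0.12, edgeR adjusted p = 1.29e-09) and 12.1-fold in *Ncoa6*-KO cells (3.59, SE 0.12, adjusted p = 1.57e-09). *Bcl2a1b* overlaps the annotated gene *Gm29094* (chr9:89199379-89215471) on the same strand, which had 14.2 to 22.8 normalized counts at rest and 107 to 142 with LPS + MSU and was not part of the sum.

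Among the effectors, *Bak1* (chr17:27019810-27029009, minus strand) had 3131 and 3012 normalized counts in *Ncoa6*-sufficient BMDMs at rest and 5810 and 5338 with LPS + MSU. The *Ncoa6*-KO libraries had 2576 and 2911 and then 4756 and 4835. It rose 1.81-fold in *Ncoa6*-sufficient (log2 difference 0.86, SE 0.10, edgeR adjusted p = 1.62e-05) and 1.75-fold in *Ncoa6*-KO cells (0.81, SE 0.10, adjusted p = 3.00e-05). *Bax* (chr7:45461697-45466898, minus strand) had 2896 and 3074 at rest and 3181 and 3347 with LPS + MSU in *Ncoa6*-sufficient cells, a log2 difference of 0.13 (SE 0.10) that was not called (edgeR adjusted p = 0.298). In *Ncoa6*-KO cells it had 3145 and 3530 and then 3901 and 4351, and the difference of 0.31 (SE 0.10) was called (edgeR adjusted p = 0.0223). That call was lost without the first *Ncoa6*-KO library at rest (log2 difference 0.23, edgeR adjusted p = 0.124) and without the second *Ncoa6*-KO library with LPS + MSU (0.23, adjusted p = 0.152).

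Both BH3-only genes fell in *Ncoa6*-sufficient cells under TMM scaling. *Pmaip1* (chr18:66458533-66465565, plus strand), the gene for NOXA, which binds MCL-1 and A1, had 423 and 400 normalized counts in *Ncoa6*-sufficient BMDMs at rest and 219 and 240 with LPS + MSU. In *Ncoa6*-KO cells the values were 375 and 333 and then 311 and 229. *Pmaip1* fell to 55.7% in *Ncoa6*-sufficient cells (log2 difference -0.84, SE 0.15, edgeR adjusted p = 0.000636). In *Ncoa6*-KO cells the log2 difference of -0.39 (SE 0.15) lay at the threshold and was not called (edgeR adjusted p = 0.05004). It was called by limma-voom (adjusted p = 0.0456) and by edgeR without a filter (adjusted p = 0.0181) and without the second *Ncoa6*-KO library at rest (0.0466). Without the first *Ncoa6*-KO library with LPS + MSU the difference was -0.63 and called (edgeR adjusted p = 0.00981), and without the second it was -0.18. *Bcl2l11* (chr2:128126038-128162547, plus strand), the gene for BIM, had 2499 and 2377 and then 1949 and 1894 in *Ncoa6*-sufficient cells, and fell to 78.8% (log2 difference -0.34, SE 0.10, edgeR adjusted p = 0.0149). In *Ncoa6*-KO cells it had 2556 and 2120 and then 2069 and 1946, a difference of -0.22 (SE 0.10) that was not called (edgeR adjusted p = 0.0957). Without the second *Ncoa6*-KO library at rest it was -0.35 and called (edgeR adjusted p = 0.0161), and without the first it was -0.076. The *Bcl2l11* call in *Ncoa6*-sufficient cells was lost with DESeq2 (adjusted p = 0.121), with DESeq2 size factors (edgeR adjusted p = 0.0808) and without the first *Ncoa6*-sufficient library at rest (0.0857) or either *Ncoa6*-sufficient library with LPS + MSU (0.0776 and 0.119).

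The calls of the smaller changes, and the direction of the *Bax* difference, depended on how the libraries were scaled. TMM, which assumes that most genes do not differ, gave factors of 1.23 to 1.29 to the 4 libraries at rest and of 0.766 to 0.829 to the 4 with LPS + MSU. With total counts as the only scaling, an alternative chosen after seeing the data, the median log2 difference over all tested genes moved by -0.67 in *Ncoa6*-sufficient and -0.63 in *Ncoa6*-KO cells, and the called genes changed from 4362 higher and 5375 lower to 2498 higher and 9653 lower in *Ncoa6*-sufficient BMDMs, and from 4446 and 4913 to 2540 and 9313 in *Ncoa6*-KO cells. *Bcl2* and the 3 *Bcl2a1* copies kept their direction and their calls in both genotypes. *Mcl1* was then at 0.20 in *Ncoa6*-sufficient (edgeR adjusted p = 0.0979, not called) and at 0.25 in *Ncoa6*-KO cells (adjusted p = 0.0418). *Bak1* was no longer called in either genotype (0.19 and 0.17, edgeR adjusted p = 0.105 and 0.140). *Bcl2l1* kept its call in *Ncoa6*-sufficient cells only (0.72 and 0.31, edgeR adjusted p = 0.00141 and 0.0996). *Bax* turned to a fall in both (-0.54 and -0.33, edgeR adjusted p = 0.000827 and 0.0179), and *Bcl2l11* and *Pmaip1* were called lower in both.

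**Figure D3:**
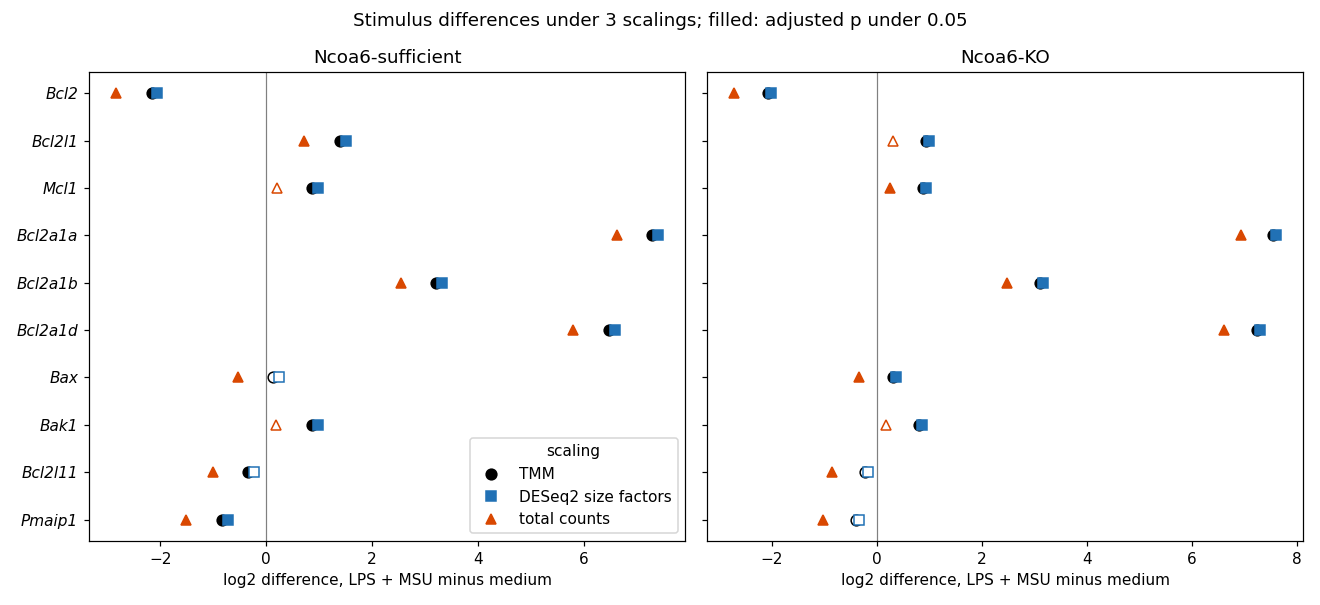
Log2 difference between LPS + MSU and medium for the 10 genes under 3 scalings of the libraries, in Ncoa6-sufficient (left) and Ncoa6-KO BMDMs (right), with filled symbols at an edgeR adjusted p under 0.05. Total counts moved all genes down by about the same amount, which turned the Bax difference from 0.13 to -0.54 in Ncoa6-sufficient cells and left the Bcl2a1 copies far above 0.

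Of the other 14 BCL-2 family genes 11 passed the filter. With LPS + MSU 3 of the 11 rose and 6 fell in *Ncoa6*-sufficient BMDMs, against 24.7% and 30.5% of all tested genes. In *Ncoa6*-KO cells 3 rose and 4 fell, against 25.2% and 27.9%. *Bmf*, a BH3-only gene, had the largest fall among them, from 302 and 291 normalized counts to 5.54 and 4.13 in *Ncoa6*-sufficient and from 277 and 208 to 6.53 and 11.2 in *Ncoa6*-KO cells (log2 differences -5.90, SE 0.31, and -4.77, SE 0.28). *Bbc3*, the gene for PUMA, fell from 811 and 830 to 440.6 and 408 and from 1106 and 1012 to 486 and 546 (-0.95 and -1.04). *Bcl2l12* (-1.44 and -1.31) and *Bcl2l13* (-0.51 and -0.46) fell in both genotypes.

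*Bid*, whose product is cut by caspase-8 into an active form, rose in both genotypes (0.38 and 0.78), as did the survival gene *Bcl2l2*, which encodes BCL-W (0.52 and 0.53). *Bcl2a1c* was listed at 0 in both unstimulated *Ncoa6*-sufficient libraries and at 18.0 and 13.8 normalized counts with LPS + MSU, and at 0 and 1.76 and then 13.1 and 7.00 in *Ncoa6*-KO cells, and was called in both. *Bad* (-0.31 and -0.10) and *Bik* (-3.51 and -1.31, from at most 18.8 normalized counts) were called in *Ncoa6*-sufficient BMDMs and not in *Ncoa6*-KO cells, and the difference between genotypes was not called for either gene (0.22, SE 0.16, and 2.20, SE 1.24, edgeR adjusted p = 0.919 and 0.891). *Bok* and *Bcl2l15*, at no more than 11.4 normalized counts, were not called. With total counts as the scaling 1 of the 11 rose and 7 fell in each genotype. Of all 17625 tested genes 2498 then rose and 9653 fell in *Ncoa6*-sufficient cells, and 2540 rose and 9313 fell in *Ncoa6*-KO cells. *Bcl2l2* was no longer called (-0.15 and -0.11), and *Bid* was at -0.29 and 0.15.

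The list of 11 genes that act after the mitochondrial membrane is opened held cytochrome c, the apoptosome, the caspases and their inhibitors. In *Ncoa6*-sufficient BMDMs 7 of the 11 rose and 3 fell, against 24.7% and 30.5% of all tested genes. In *Ncoa6*-KO cells 8 rose and 3 fell, against 25.2% and 27.9%. *Birc3*, which encodes the inhibitor of apoptosis protein cIAP2, had the largest difference with log2 values of 2.77 (SE 0.12) and 3.08 (SE 0.12). With total counts as the scaling 7 rose and 4 fell, and 6 rose and 4 fell, with the numbers over all tested genes given above.

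Of 11 genes whose products act on BCL-2 family members 7 rose and 2 fell in *Ncoa6*-sufficient BMDMs, against 24.7% and 30.5% of all tested genes. In *Ncoa6*-KO cells 7 rose and 1 fell, against 25.2% and 27.9%. These became 3 and 5, and 3 and 4, with total counts, with the numbers over all tested genes given above. *Marchf5*, listed as March5 in the table, encodes a ubiquitin ligase of the mitochondrial outer membrane that acts on MCL-1 and NOXA, and rose from 1725 and 1795 to 14561 and 13345 normalized counts in *Ncoa6*-sufficient cells and from 1480 and 1608 to 11839 and 10398 in *Ncoa6*-KO cells (log2 differences 2.99, SE 0.11, and 2.85, SE 0.11). *Foxo3*, a transcription factor with *Bcl2l11* and *Bbc3* among its known targets, fell from 1830 and 1762 to 248 and 293 and from 2287 and 1854 to 396 and 504 (-2.73, SE 0.15, and -2.20, SE 0.14). In the LPS + MSU libraries *Foxo3* was higher in *Ncoa6*-KO than in *Ncoa6*-sufficient cells by 0.73 (SE 0.16, edgeR adjusted p = 0.0307), the only call in a genotype comparison among these 3 lists.

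To see whether loss of *Ncoa6* changed the members, the genotypes were compared within each culture condition. At rest 0 of the 10 genes were called by edgeR, while 0.573% of all tested genes were higher and 1.3% lower in *Ncoa6*-KO cells. With LPS + MSU 0 of the 10 were called, against 1.96% higher and 1.63% lower among all tested genes. At an unadjusted p under 0.05 there were 2 members at rest and 3 with LPS + MSU, against 12.8% and 17.4% of all tested genes. DESeq2 called 1 member in each comparison, and 2.81% and 4.82% of all tested genes. With 1 library left out edgeR called between 0.127% and 2.04% of all tested genes at rest and between 0.282% and 4.42% with LPS + MSU. The smallest edgeR adjusted p at rest was that of *Bcl2a1d*, whose *Ncoa6*-KO libraries (39.6 and 23.7 normalized counts) lay below the *Ncoa6*-sufficient ones (81.8 and 53.3) with a log2 difference of -1.07 (SE 0.27, edgeR adjusted p = 0.0868). Over the alternatives its adjusted p ran from 4.30e-06 to 0.626, and DESeq2 called it (adjusted p = 0.00152). With LPS + MSU *Bcl2a1d* was at -0.30 (SE 0.16) and *Bcl2a1a* at -0.55 (SE 0.18, edgeR adjusted p = 0.136), the gene that DESeq2 called there (adjusted p = 0.0480). The sum of the copies differed by 0.02 (SE 0.11) at rest and by -0.14 (SE 0.11) with LPS + MSU, with overlapping libraries in both (edgeR adjusted p = 0.989 and 0.563).

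*Bax* had the smallest edgeR adjusted p with LPS + MSU. Its *Ncoa6*-KO libraries (3901 and 4351 normalized counts) lay above the *Ncoa6*-sufficient ones (3181 and 3347), 1.26-fold on the fitted scale (log2 difference 0.34, SE 0.10, edgeR adjusted p = 0.0992, with a range of 0.00158 to 0.498 over the alternatives). The lower end of the *Bax* range came from a replicate block within genotype. That block takes the difference between the first and the second libraries of a genotype out of the spread against which genotypes are compared. *Bak1* lay lower in *Ncoa6*-KO libraries under both conditions without a call (-0.16, SE 0.10, and -0.22, SE 0.10). *Bcl2l1* was 1.31-fold higher in *Ncoa6*-KO cells at rest (0.39, SE 0.15, edgeR adjusted p = 0.278), a value that moved between 0.11 and 0.64 when 1 library was left out, and was called without the first *Ncoa6*-KO library at rest (edgeR adjusted p = 0.0213). *Mcl1*, *Bcl2a1b* and *Bcl2l11* differed by at most 0.06 on the log2 scale in either direction, with overlapping libraries. Macrophage marker sums were lower in *Ncoa6*-KO libraries (above), and their part in these values was not tested.

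**Figure D4:**
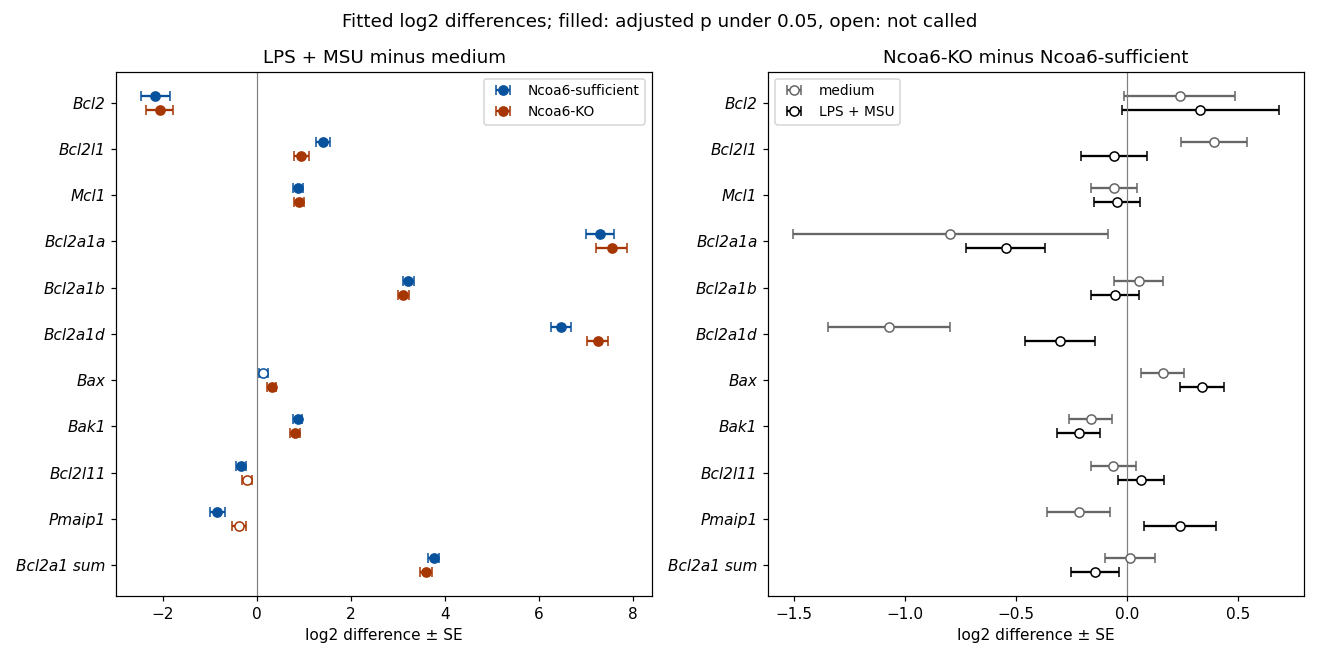
Fitted log2 differences with their SE for the 10 genes and the sum of the Bcl2a1 copies, between LPS + MSU and medium (left) and between Ncoa6-KO and Ncoa6-sufficient BMDMs (right, on a narrower axis), with filled points at an edgeR adjusted p under 0.05. Calls are seen only on the left, and the largest genotype difference is -1.07 for Bcl2a1d at rest.

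Whether the response to LPS + MSU itself depended on *Ncoa6* was tested as the interaction of genotype and stimulus. edgeR called 0 of the 10 members and 0% of all tested genes, with 1 member and 5.93% of all tested genes at an unadjusted p under 0.05. DESeq2 called 43 genes and limma-voom 0, none of them a member. The member with the smallest edgeR adjusted p was *Bcl2a1d*, whose rise was larger in *Ncoa6*-KO cells by 0.77 (SE 0.32, adjusted p = 0.803), from the lower level at rest given above. For *Bax*, *Bcl2l11* and *Pmaip1*, called in 1 genotype and not in the other, the differences between genotypes were 0.18 (SE 0.14), 0.12 (SE 0.15) and 0.46 (SE 0.22), and edgeR called none of them (adjusted p = 0.922, 0.955 and 0.852). *Bcl2l1* rose less in *Ncoa6*-KO cells by 0.45 (SE 0.21, edgeR adjusted p = 0.852). These sizes moved with the libraries used: with each library left out the interaction ran from 0.42 to 1.22 for *Bcl2a1d*, from 0.054 to 0.26 for *Bax*, from -0.0052 to 0.26 for *Bcl2l11*, from 0.16 to 0.62 for *Pmaip1* and from -0.70 to -0.16 for *Bcl2l1*, with 0 members called.

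As a description of what moved alike, Pearson's r of log2 values was taken over the 8 libraries between *Bcl2*, *Bcl2a1b* and *Bcl2l11* and 11207 other genes. The 8 points of each gene fall into stimulated and unstimulated libraries, so r mostly reflects that split. *Bcl2a1b* was close to *Gnb4* (r = 0.999) and *Tnfaip3* (0.999), which encodes the NF-κB inhibitor A20. *Bcl2* was closest to *Ppcdc*, *Aaas* and *Pfas* (0.996, 0.996 and 0.993), and *Bcl2l11* to *Neu1*, *Siae* and *Ndrg1* (0.986, 0.985 and 0.982).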

How the data were processed

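RNA from 8 BMDM cultures was made into stranded poly(A) libraries by the authors, sequenced in pairs of 100-base reads, aligned with STAR 2.7.3a to GRCm38 and counted per gene with RSEM 1.3.3. The authors deposited the expected counts of RSEM without normalization. Here they were rounded, and the filter kept genes whose sum over all 8 libraries was at least 10. All 4 groups entered one quasi-likelihood fit in edgeR 4.0.16 (R 4.3.3) with TMM normalization, with calls made at an adjusted p (Benjamini-Hochberg) under 0.05. Normalized counts are scaled to a mean effective library size of 29332189. A comparison of 2 libraries against 2 allows no exact permutation p below 0.333, so p-values come from the fit over all genes and cover only the spread between these libraries. No libraries were paired by number. Alternatives used DESeq2 1.42.0, limma 3.58.1 (voom), other filters and scalings, a replicate block, the 4 libraries compared alone and each library left out. The members and lists were chosen with earlier results of these data known. The text names all 10 members, the other family genes past the filter and, from the other lists, genes called between genotypes and otherwise the 2 with the largest stimulus difference, except that some genes the rules would name are not reported here. Promoter windows are from RefSeq (GRCm38.p6), which held them for 9 of the 10 members, and gene models from GENCODE, another annotation release than the authors used.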

Additional observations from a re-analysis of the deposited data

How the results depend on the processing

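Among the recomputed stimulus differences of the members and the *Bcl2a1* sum 364 kept their direction and their side of the threshold, 11 lost and 11 gained a call, and 2 reversed: with total counts as the scaling, added after seeing the data, *Bax* was at -0.54 in *Ncoa6*-sufficient and -0.33 in *Ncoa6*-KO cells. Requiring a log2 difference over 1 as well left 5 of the 9 members called in *Ncoa6*-sufficient and 4 of the 8 in *Ncoa6*-KO cells, against 32.5% and 30.3% of all tested genes. The *Bcl2a1* sum kept its call under all alternatives in both genotypes. With each library left out the called members numbered 8 to 9 and 7 to 10 of 10, against 47.3% to 56.9% and 44.8% to 53.3% of all tested genes. The gained calls were all of *Pmaip1* or *Bcl2l11* in *Ncoa6*-KO cells.

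Genotype calls depended on the model. Against 0 members in the report, DESeq2 called 1 at rest and 1 with LPS + MSU, the fit without a filter 2 and 2, the fit with only the 4 libraries compared 1 with LPS + MSU, and leaving out a library gave 0 to 1 at rest. With the replicate number as a block across all groups 1 and 2 members were called, and with a replicate block within genotype 2 and 4, with 1 in the interaction (*Bcl2a1d*). The block within genotype takes the difference between the first and the second libraries of a genotype out of the spread. Genotype differences are measured against that spread, so the genotype calls of this block can be too many. Both blocks also called the stimulus differences of *Pmaip1* (adjusted p = 0.0256 and 0.00607) and *Bcl2l11* (0.0409 and 0.0182) in *Ncoa6*-KO cells. Whether these numbers pair libraries is not stated. Replicate differences correlated at 0.26 and 0.33 between rest and LPS + MSU within a genotype and at 0.03 to 0.19 across genotypes. Only pairs within a genotype could share a mouse, and their correlations were the highest. Because a pairing is not stated, the blocked calls are given only here, apart from the lower end of the *Bax* range in the report. If cultures at rest and with LPS + MSU came from the same mice, the main fit treated them as independent. Over all genes the 331 calls at rest became 1152 without a filter and 1023 and 1893 with the blocks. The 632 calls with LPS + MSU became 1611, 1532 and 2594, and 347 with only the 4 libraries compared. The interaction had 269, 86 and 444. With 1 library left out the calls at rest ran from 22 to 351, with 22 and 81 without the first and the second *Ncoa6*-sufficient library at rest and 103 without the second *Ncoa6*-KO one. With LPS + MSU they ran from 49 to 765, with 49 and 417 without the first and the second *Ncoa6*-sufficient library with LPS + MSU, 63 without the second *Ncoa6*-KO one, and 355 and 359 without the first and the second *Ncoa6*-sufficient library at rest. The interaction had 0 to 16. The causes of these changes were not tested.

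Small genotype differences changed sign, none of them with a call. With total counts and LPS + MSU *Bcl2l1* was at 0.015, *Mcl1* at 0.031 and *Bcl2a1b* at 0.021. The interaction of *Mcl1* was -0.040 with DESeq2 and with its size factors. With each library left out the difference at rest ran from -0.34 to 0.66 for *Bcl2*, -2.28 to 0.62 for *Bcl2a1a*, -0.20 to 0.069 for *Bcl2l11* and -0.043 to 0.079 for the *Bcl2a1* sum. With LPS + MSU it ran from -0.17 to 0.036 for *Bcl2l1*, -0.18 to 0.063 for *Bcl2a1b* and -0.016 to 0.44 for *Pmaip1*. The interaction ran from -0.33 to 0.67 for *Bcl2*, -0.078 to 0.071 for *Mcl1*, -1.16 to 1.74 for *Bcl2a1a*, -0.16 to 0.036 for *Bak1* and -0.0052 to 0.26 for *Bcl2l11*. The longest transcript in place of all exons moved 15 of 40 levels per length by more than the replicate SD. The few reads of *Bcl2a1a* at rest limit every value that rests on them.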

Other observations

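The locus of *Bcl2a1d* is covered on the other strand by the antisense gene *Gm10634* (chr9:88719629-88806264). It had 1.501 to 7.02 normalized counts in the 4 libraries at rest and 52.7 to 64.4 in the 4 with LPS + MSU, against 23.7 to 81.8 and 4709 to 6690 for *Bcl2a1d*. The libraries were stranded, and the strand setting of the counting is not given in the sources used here.

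Promoter windows of the other members were searched on both strands for the same 5 motifs: AP-1, PU.1, the κB consensus, the CRE (TGACGTCA) and the FOXO core (GTAAACA). *Bcl2l1* had a κB match in 1 of its 3 windows, where 11.2% of all windows had one, and *Bcl2l11* had a FOXO match in 1 of its 2 windows, against 3.65% of all windows. *Bak1* had a PU.1 match, and the single windows of *Bcl2*, *Mcl1* and *Bax* held none of the 5 motifs.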
